A study of Mus musculus with 8 samples.

Results

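The genes described here encode the nuclear subunits of the 5 oxidative phosphorylation complexes in cultured mouse astrocytes. They were taken by gene symbol: Nduf genes of the a, b, c, s and v series for complex I, Sdha to Sdhd for complex II, symbols starting with Uqcr for complex III, Cox4 to Cox8 for complex IV, and Atp5 for complex V. The rule found 78 of the 13607 genes in the count table: 35 of complex I, 4 of complex II, 8 of complex III, 14 of complex IV and 17 of complex V. All 78 passed the filter on low counts. Some matches are not structural subunits of the complex their symbol points to. Ndufa4 is now regarded as a subunit of complex IV, Cox7a2l helps join complexes into supercomplexes, Atp5s is coupling factor B, and Atp5sl (also called Dmac2) is a complex I assembly factor. The subunits Ndufs5, Cox4i2 and Cox8b, and the 13 mitochondrially encoded subunits, were not analysed here.

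Oxidative phosphorylation takes place in the inner mitochondrial membrane. Complexes I and II pass electrons from NADH and succinate to ubiquinone, complex III passes them to cytochrome c, and complex IV passes them to oxygen. Complexes I, III and IV pump protons, and complex V (ATP synthase) uses the proton gradient to make ATP. Astrocytes are known for high glycolysis beside this respiration, and several complex IV subunits exist as alternative isoforms that differ between tissues.

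RNA was sequenced from cultured astrocytes of the strain C57BL/6J; Yapf/f;Tazf/f, in which both alleles of Yap1 and of Taz (symbol Wwtr1) are floxed and can be deleted by Cre. The study asked how the loss of YAP and TAZ changes transcription while an oncogene transforms astrocytes. Cells were transduced with lentiviruses for a doxycycline-inducible HER2CA, a constitutively active HER2 (a growth factor receptor and oncogene), for rtTA (the activator that doxycycline works through) and for CreERT2, which cuts floxed DNA once the drug 4-hydroxytamoxifen (4OH-TAM) is added. There were 4 groups of 2 libraries, A and B. Control astrocytes were not transformed and were grown without doxycycline. HER2CA day 15 astrocytes had doxycycline for 15 days and no 4OH-TAM. The 4OH-TAM-labelled libraries came from HER2CA astrocytes given doxycycline and 1 µM 4OH-TAM for 15 days. Gliomaspheres were first-passage spheres of HER2CA cells kept floating in doxycycline medium and harvested at 3 weeks. Every group was kept in serum-free medium with N-2 supplement, EGF and bFGF. The labels give DMSO for HER2CA day 15 and the gliomaspheres, but the treatment protocol calls cells without 4OH-TAM untreated, so the vehicle is not certain. No label says whether A and B were separate cultures or animals, so the p-values measure the spread between 2 libraries, which may be technical. Levels are given as CPM, the read count scaled for library size and composition.

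Total counts were 15517708 to 28231426 per library, and the members held 0.611% to 1.14% of them. Gliomasphere B stood apart: its ribosomal RNA transcript Rn45s took 36.1% of the counts, against 0.984% to 2.92% in the other 7 libraries, and the members were 0.999% of its counts without Rn45s and Lars2. Yap1, a target of the recombination, was at 107 and 103 CPM in the 4OH-TAM-labelled libraries and at 101 and 103 CPM in HER2CA day 15, and these ranges overlap. Wwtr1 was lower there (123 and 122 against 194 and 210.3 CPM). Which exons are floxed was not stated in the labels, and reads outside them do not check the deletion, so the group is named by its label. The astrocyte markers were all present, with a summed level of 6539 to 7683 CPM in the controls, 2422 to 2541 in HER2CA day 15, 12560 to 12996 in the 4OH-TAM-labelled libraries and 11978 to 12455 in the gliomaspheres. Microglia and macrophage markers (9 of 10 measured, none at 0) summed to 207 to 231, 208 to 221, 1083 to 1126 and 111 to 116 CPM in the same order. Oligodendrocyte lineage markers (10 of 10 measured, none at 0) summed to 468 to 506, 110.0 to 119, 909 to 953 and 2995 to 3306 CPM. The part of these other cell types in the results below was not tested. Because whole cultures were sequenced, fewer cells of a type and less RNA per cell cannot be told apart.

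RefSeq promoter windows on GRCm38.p6, 250 bases before to 50 bases after a transcription start, were found for 63 of the 78 members. Exact matches on either strand were counted for the cores of factors known to act on respiratory genes. The NRF1 core CGCATGCG was in the windows of 9 members (14.3%), against 2.07% of all 27025 genes. The YY1 core AAGATGGCG was in 7 (11.1%, against 1.64%), the ETS core CCGGAAGT, bound by factors such as GABP, in 5 (7.94%, against 4.31%), and the oestrogen-related receptor core TCAAGGTCA in 2 (3.17%, against 0.466%). No member held TGATGCAA, an ATF4 composite site found in 1.03% of all genes. General promoter elements were near their background: CCAAT in 44.4% of members against 41.1% of genes, and GGGCGG (the GC box) in 39.7% against 38.2%. These are matches of letters, and they do not show binding.

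The sequences below lie just upstream of 5 members that moved far in the comparisons that follow. They are shown from 5′ to 3′ along the gene, up to the first annotated exon, with exact matches to any of those 7 motifs in capitals. Cox5b and Atp5g1 were higher in HER2CA day 15 than in the controls, and Ndufc2, Uqcr11 and Cox6b2 were lower. The printed stretches are chr1:36691237-36691448 (plus strand) for Cox5b, chr11:96075671-96075881 (minus strand) for Atp5g1, chr7:97399753-97400002 (plus strand) for Ndufc2, chr10:80406831-80407071 (minus strand) for Uqcr11 and chr7:4753095-4753225 (minus strand) for Cox6b2.
Cox5b: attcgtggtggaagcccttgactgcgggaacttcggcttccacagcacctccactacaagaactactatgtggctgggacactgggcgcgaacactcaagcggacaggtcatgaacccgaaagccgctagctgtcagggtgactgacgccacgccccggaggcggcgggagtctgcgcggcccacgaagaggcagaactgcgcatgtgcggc
Atp5g1: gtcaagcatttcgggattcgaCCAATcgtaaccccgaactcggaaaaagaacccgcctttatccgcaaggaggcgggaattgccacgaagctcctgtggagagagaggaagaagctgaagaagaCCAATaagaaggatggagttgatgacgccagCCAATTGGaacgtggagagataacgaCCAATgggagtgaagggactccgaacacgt
Ndufc2: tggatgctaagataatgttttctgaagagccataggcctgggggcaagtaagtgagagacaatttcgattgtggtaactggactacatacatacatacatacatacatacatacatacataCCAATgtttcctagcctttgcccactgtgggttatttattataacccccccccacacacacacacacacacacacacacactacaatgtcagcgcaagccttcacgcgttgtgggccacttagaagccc
Uqcr11: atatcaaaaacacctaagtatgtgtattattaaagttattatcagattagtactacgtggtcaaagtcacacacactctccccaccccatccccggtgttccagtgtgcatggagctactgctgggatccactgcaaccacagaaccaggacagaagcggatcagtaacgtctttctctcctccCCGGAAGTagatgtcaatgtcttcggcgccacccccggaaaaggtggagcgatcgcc
Cox6b2: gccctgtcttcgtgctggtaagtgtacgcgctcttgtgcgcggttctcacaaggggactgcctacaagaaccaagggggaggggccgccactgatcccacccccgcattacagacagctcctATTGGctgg
The Atp5g1 stretch shown held 5 CCAAT boxes, of which 1 pair overlapped, and the Cox5b stretch none of the 7 motifs. The Uqcr11 stretch held 1 ETS core, and the Ndufc2 and Cox6b2 stretches 1 CCAAT box each. Outside the printed stretches, the longer windows counted above also held an NRF1 core for Uqcr11 and a GC box for Cox6b2. GC content ran from 45.2% (Ndufc2, with 4 CpG sites) to 62.7% (Cox5b, with 18).

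Summed over all members, the level was 8782 and 9209 CPM in the controls, 8649 and 8458 in HER2CA day 15, 7633 and 7497 in the 4OH-TAM-labelled libraries, and 10737 and 9588 in the gliomaspheres. The 4OH-TAM-labelled libraries were the lowest and the gliomaspheres the highest, with no overlap between either and any other group. The place of gliomasphere B rests on its scaling: as a share of counts without Rn45s and Lars2, members were 0.999% there and 1.003% in control B, and as a share of all counts gliomasphere B was the lowest library. The group with the highest mean was the gliomaspheres for 33 members, HER2CA day 15 for 26, the controls for 18, and the 4OH-TAM-labelled libraries for 1. The lowest mean was in the 4OH-TAM-labelled libraries for 44 members, in HER2CA day 15 for 20, in the controls for 9 and in the gliomaspheres for 5. For 24 of those 44, both 4OH-TAM-labelled libraries lay below all 6 others. Complex I differed from this order, with 19 of its 35 members highest in HER2CA day 15 (15 of them with both libraries above all 6 others). The counts of highest and lowest groups were not made over all genes, so they have no background to be read against.

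**Figure D1:**
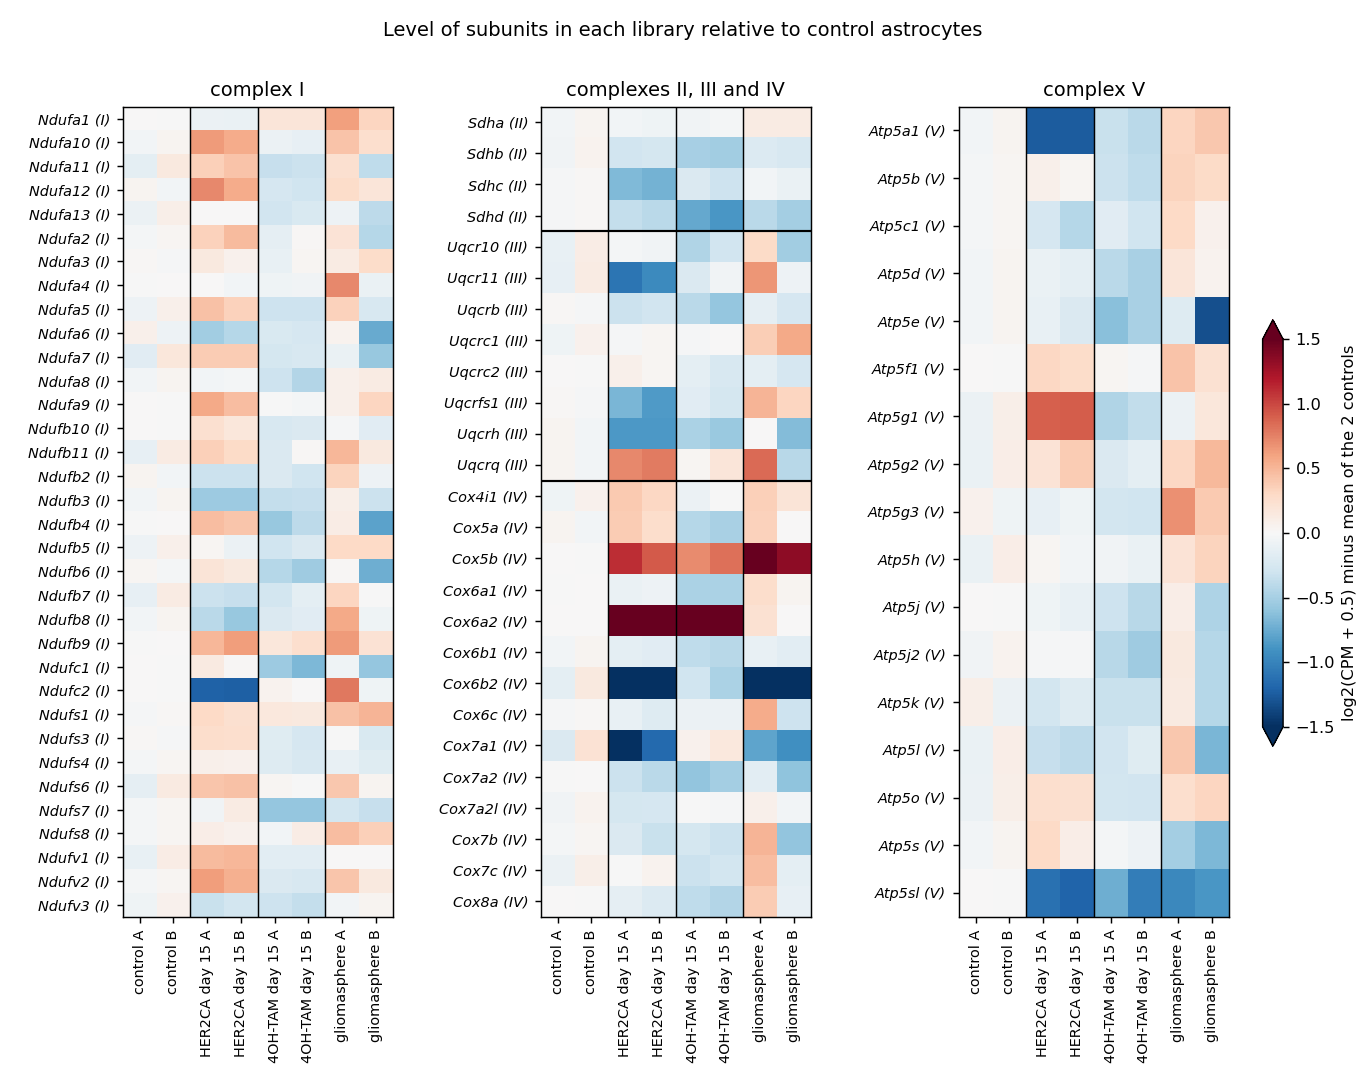
Colours give log2(CPM + 0.5) in each library minus the mean of the 2 controls, with one row per gene shown, the complex in brackets, and values beyond 1.5 shown at the end of the scale. The HER2CA day 15 columns are red for many complex I genes and blue for Ndufc2, Uqcr11, Cox6b2 and Atp5a1, the 4OH-TAM columns are mostly pale blue, and gliomaspheres A and B differ from each other more than other pairs do.

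HER2CA day 15 astrocytes were compared with controls. The controls had no doxycycline and the other groups did. In each comparison with controls, the oncogene and doxycycline therefore cannot be told apart. The 4OH-TAM-labelled libraries also differ from controls in 4OH-TAM and any recombination, and the gliomaspheres in their culture. The complexes went different ways. Complex I members were more often higher, 3 of 4 complex II members fell, the Rieske and hinge subunits of complex III fell, and in complex V the alpha chain fell while the c-ring gene Atp5g1 rose. Of the 78 members, 26 rose and 22 fell (edgeR's quasi-likelihood test, Benjamini-Hochberg adjusted p under 0.05), beside 37.3% of all genes called higher and 38.4% called lower. The median member log2 fold change was -0.02, and that of all genes was also -0.02. Complex I had 17 members higher and 7 lower of 35 (median 0.18), complex II 0 and 3 of 4 (-0.33), complex III 1 and 4 of 8 (-0.18), complex IV 4 and 5 of 14 (-0.15) and complex V 4 and 3 of 17 (-0.09). Relative to the median of all genes, the complex I median was 0.194 to 0.195 higher over 4 other scalings. Scaling factors shift all genes nearly alike, so this difference could hardly move and does not check the result. The count of complex I members called higher moved with the scaling, to 7 with upper-quartile factors (10 lower) and to 0 with none (1 lower). Without control A, 15 of the 78 members were called higher. Of the 48 calls, 12 held under every alternative that tested the gene: Cox5b, Cox6a2 and Atp5g1 higher, and Ndufc2, Sdhc, Uqcr11, Uqcrfs1, Uqcrh, Cox6b2, Cox7a1, Atp5a1 and Atp5sl lower. Cox6a2 and Cox7a1 were tested in 16 of the 17 alternatives, as the filter of 5 CPM in 2 libraries dropped them. Cox6a2 had 0 counts in both controls and reached 1 CPM only through HER2CA day 15 and the 4OH-TAM-labelled libraries. Its rise is therefore conditional on the 1 CPM limit that every gene here had passed.

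**Figure D2:**
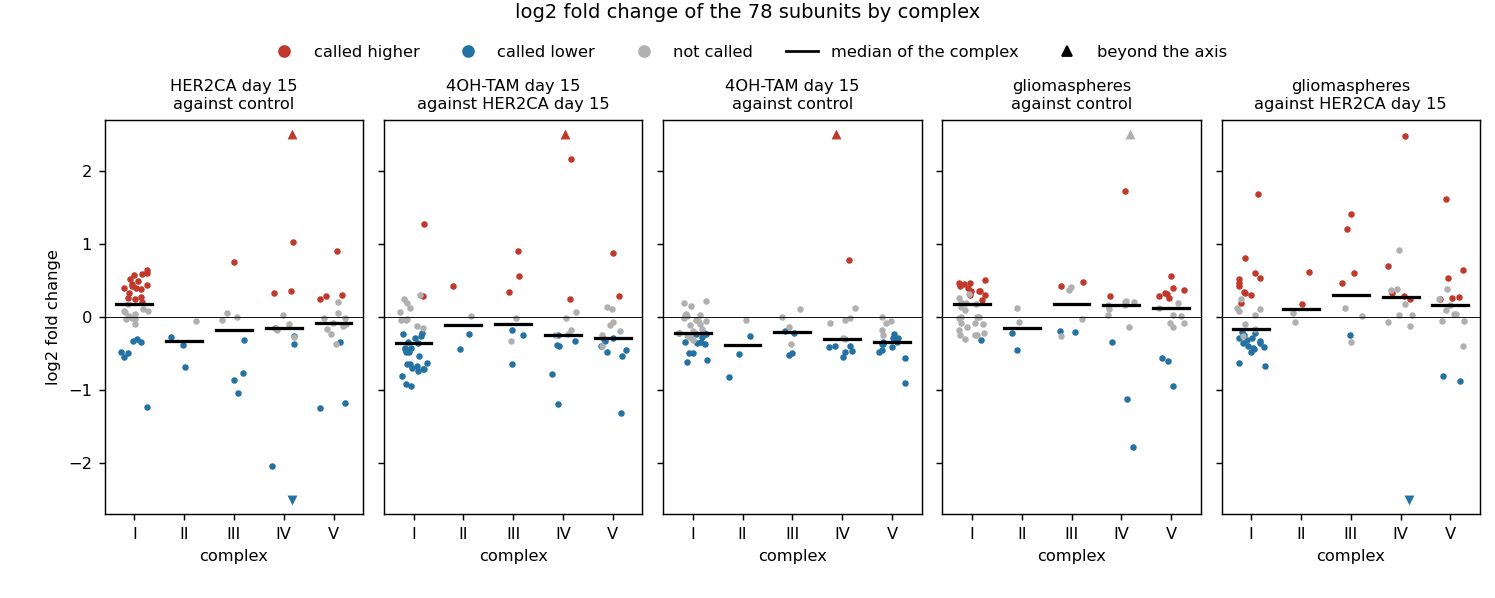
Each point is 1 of the 78 genes, placed by complex and by its log2 fold change in the comparison named above the panel. Red and blue points were called higher and lower by edgeR, grey points were not called, bars are medians of a complex, and triangles mark values beyond the axis. The 4OH-TAM panels have all 5 medians below 0, and the gliomasphere panels have most medians above 0.

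The 4OH-TAM-labelled libraries were compared with HER2CA day 15. These groups differ in the drug 4OH-TAM as well as in any Cre activity and loss of YAP and TAZ. No group had the drug alone, so these cannot be told apart. More members were lower than higher in the 4OH-TAM-labelled libraries, and complex I had the lowest median. Among the exceptions were genes that were low in HER2CA day 15: Atp5a1, Ndufc2, Uqcr11, Uqcrfs1, Cox6b2 and Cox7a1. Of the 78 members, 11 rose and 42 fell, beside 40.8% of all genes called higher and 39.7% called lower. The median member log2 fold change was -0.25, against 0.01 over all genes. Complex I had 2 members higher and 23 lower (median -0.36), complex II 1 and 2 (-0.11), complex III 3 and 3 (-0.09), complex IV 3 and 6 (-0.24) and complex V 2 and 8 (-0.28). The member median minus that of all genes was -0.26, and -0.16 when genes had to reach 5 CPM in 2 libraries. It was also -0.26 under each of 4 other scalings, which is no check, because scaling shifts all genes nearly alike. With upper-quartile factors, which put the median of all genes at 0.22, 19 members were called higher and 23 lower. With no scaling factors, 6 were called higher and 6 lower. Ndufc2, Uqcr11, Uqcrfs1, Cox6b2, Cox7a1 and Atp5a1 (higher) and Ndufa12, Ndufb4, Ndufv2, Cox5a, Cox6a2 and Atp5g1 (lower) held under every alternative that tested them. That was 16 alternatives for Cox6a2 and Cox7a1 and 17 for the rest. Both this comparison and the one before use the HER2CA day 15 libraries, so their opposite directions are not independent.

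Set against the controls, the 4OH-TAM-labelled libraries had members called lower in every complex. Cox5b and Cox6a2 rose, and 40 members fell, beside 31% of all genes called higher and 28.2% called lower. The median member log2 fold change was -0.25, against 0.00 over all genes. Complex V had 12 of 17 members lower (median -0.34), complex I 15 of 35 (-0.22), complex II 3 of 4 (-0.39), complex III 4 of 8 (-0.21) and complex IV 6 of 14 (-0.30). The largest falls among structural subunits were in Sdhd (log2 fold change -0.82, SE 0.07, edgeR adjusted p = 1.77e-07) and Ndufc1 (log2 fold change -0.62, SE 0.13, edgeR adjusted p = 8.92e-04). The member median minus that of all genes was -0.25 here and under each of 4 other scalings. As above, this agreement is no check, because scaling shifts all genes nearly alike. The count of members called lower was 2 with no scaling factors, 22 without 4OH-TAM B and 25 without control B. Cox5b (higher) and Sdhd and Atp5sl (lower) held under all 17 alternatives, and Cox6a2 (higher) under the 16 that tested it. The rise of Cox6a2 is again conditional on how it passed the limit on low counts.

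Gliomaspheres were compared with controls. They differ from controls in floating culture, passage and harvest at 3 weeks as well as in oncogene and doxycycline, which cannot be told apart. Called higher were 23 members (29.5%), both F1 chains Atp5a1 and Atp5b among them, and 11 (14.1%) were called lower. Of all genes, 32.5% were called higher and 32% lower, so rises were no more frequent among members. The share called higher was 34.3% in complex I and 41.2% in complex V. The median member log2 fold change was 0.13, against -0.01 over all genes. Complex I had 12 higher and 1 lower (median 0.18), complex II 0 and 2 (-0.15), complex III 2 and 2 (0.18), complex IV 2 and 3 (0.16) and complex V 7 and 3 (0.12). These counts turned on which sphere library was used. Without gliomasphere B, 39 members were called higher and 7 lower, and without gliomasphere A, 30 were called lower and 18 higher. The median of complex I minus that of all genes was 0.24 without gliomasphere B and -0.06 without gliomasphere A. Without control A, 15 were called higher, and without control B, 5 were called lower. Cox5b (higher) and Sdhd, Cox6b2, Atp5s and Atp5sl (lower) held under all 17 alternatives.

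Between gliomaspheres and HER2CA day 15, 28 members were higher and 20 lower in the gliomaspheres, beside 38.4% of all genes called higher and 40.4% called lower. The median member log2 fold change was 0.10, against -0.03 over all genes. Complex I had 11 higher and 16 lower (median -0.17), complex II 2 and 0 (0.11), complex III 4 and 1 (0.30), complex IV 5 and 1 (0.27) and complex V 6 and 2 (0.16). Without gliomasphere B, 40 members were higher and 10 lower, and without gliomasphere A, 22 were higher and 33 lower. Without HER2CA day 15 A, 13 were lower. Ndufc2, Uqcr11, Uqcrfs1, Cox6b2 and Atp5a1 (higher) and Ndufa7, Ndufa12, Ndufv1, Atp5g1 and Atp5s (lower) held under all 17 alternatives. Cox6a2 (lower) held under the 16 that tested it, but this difference is also conditional on how it passed the limit on low counts. The 5 comparisons share control, HER2CA day 15, 4OH-TAM or sphere libraries, so they are not independent of each other.

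The 2 sphere libraries differed by transcript length. For the 32 members with a transcript of at most 700 bases, the median log2 ratio of gliomasphere B over A was -0.53, and 28 of them were lower in B. For the 44 longer ones it was -0.12. Among other genes the medians were -0.37 for 135 short transcripts and 0.01 for 9553 longer ones. In the other 3 groups the medians of B over A lay between -0.04 and 0.07. Examples of short subunits with far-apart sphere values, gliomasphere A first, were Uqcrq (86.9 and 35.8 CPM), Cox7b (116 and 53.7) and Atp5l (74.1 and 34.5).

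**Figure D3:**
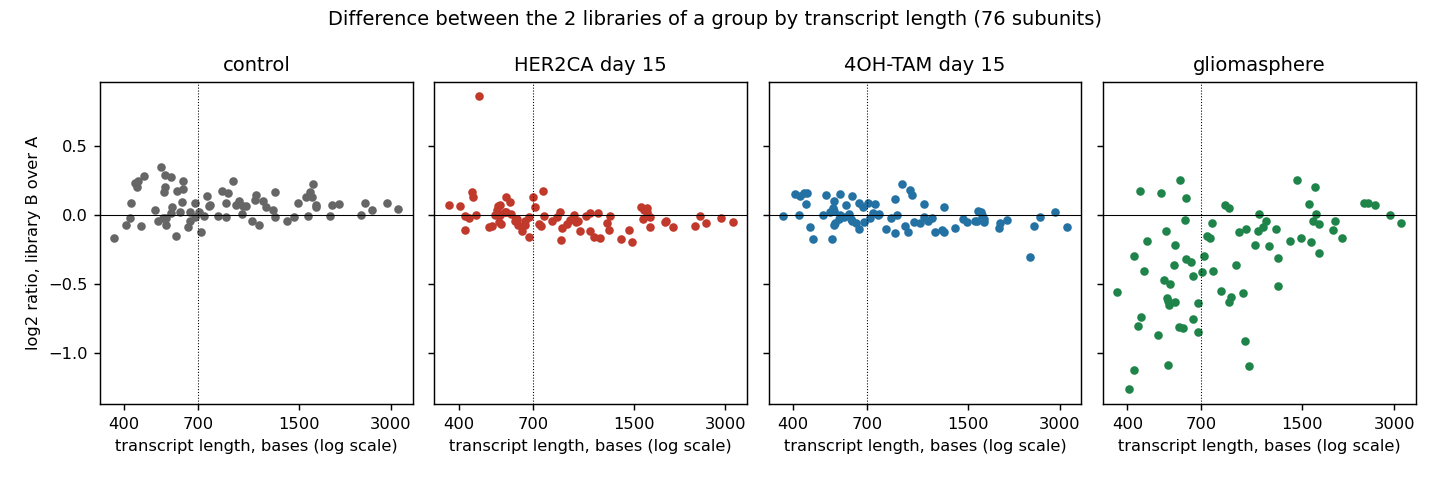
Each point is 1 of the 76 genes with a mean of at least 10 CPM, placed by transcript length (log scale, dotted line at 700 bases) and by the log2 ratio of library B over library A within a group. In the gliomasphere panel the short transcripts lie mostly below 0, with a median of -0.53, and in the other 3 panels the points scatter around 0. The Pearson correlation of this ratio with log2 length was 0.51 in the gliomaspheres. It was -0.04 in the controls, -0.29 in HER2CA day 15 and -0.35 in the 4OH-TAM-labelled libraries.

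Complex I takes electrons from NADH through its N module, passes them along the Q module and pumps protons in the membrane arm. The N-module subunit Ndufv1, which binds NADH and FMN, was at 88.3 and 103 CPM in the controls, 133 and 135 in HER2CA day 15, 85.7 and 85.5 in the 4OH-TAM-labelled libraries and 95.8 and 96 in the gliomaspheres. Both HER2CA day 15 values lay above all others (against controls, log2 fold change 0.49, SE 0.08, edgeR adjusted p = 3.50e-05). Its iron-sulfur partner Ndufv2 was also highest in HER2CA day 15, at 80.6 and 83.7 CPM in the controls, 127 and 119 in HER2CA day 15, 70.8 and 69.4 in the 4OH-TAM-labelled libraries and 110.0 and 90.7 in the gliomaspheres. Ndufv2 fell between HER2CA day 15 and the 4OH-TAM-labelled libraries (log2 fold change -0.81, SE 0.08, edgeR adjusted p = 3.83e-07). The largest N-module chain, Ndufs1, was at 139.5 and 143 CPM in the controls, 174 and 167 in HER2CA day 15, 158 and 156 in the 4OH-TAM-labelled libraries and 191 and 200.4 in the gliomaspheres. The gliomaspheres were highest and the controls lowest (HER2CA day 15 against controls, log2 fold change 0.27).

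In the Q module, Ndufs7, which carries the last iron-sulfur cluster before ubiquinone, was at 50.1 and 52.3 CPM in the controls, 49.5 and 55.9 in HER2CA day 15, 33.9 and 34 in the 4OH-TAM-labelled libraries and 42 and 40.3 in the gliomaspheres. Controls and HER2CA day 15 overlapped, the gliomaspheres lay below both, and the 4OH-TAM-labelled libraries were lowest (against HER2CA day 15, log2 fold change -0.64, SE 0.08, edgeR adjusted p = 3.81e-06). Ndufs8, a ferredoxin-like subunit, was highest in the gliomaspheres (against controls, log2 fold change 0.42). It was at 36.1 and 37.7 CPM in the controls, 39.7 and 38.5 in HER2CA day 15, 36 and 39.7 in the 4OH-TAM-labelled libraries and 51 and 47.4 in the gliomaspheres.

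Among the accessory subunits, Ndufa12, which joins the N module late, had the largest complex I rise in HER2CA day 15. It was at 79.1 and 75.1 CPM in the controls, 127 and 114 in HER2CA day 15, 64.5 and 62.6 in the 4OH-TAM-labelled libraries and 93.1 and 87.5 in the gliomaspheres. HER2CA day 15 lay above and the 4OH-TAM-labelled libraries below every other library (between these groups, log2 fold change -0.92, SE 0.08, edgeR adjusted p = 2.71e-08). Ndufa10 (122 and 129 CPM in controls, 197 and 185 in HER2CA day 15, log2 fold change 0.60) and Ndufa9 (92.5 and 91.3 CPM in controls, 136 and 127 in HER2CA day 15, log2 fold change 0.52) also rose in HER2CA day 15. Ndufb4, a membrane-arm subunit, had the largest complex I fall in the 4OH-TAM-labelled libraries against HER2CA day 15. It was at 13.2 and 13.3 CPM in the controls, 18.4 and 17.7 in HER2CA day 15, 8.73 and 9.98 in the 4OH-TAM-labelled libraries and 14.4 and 7.39 in the gliomaspheres (log2 fold change -0.95, SE 0.18, edgeR adjusted p = 2.15e-04). Ndufc1, also of the membrane arm and with its lowest mean in the 4OH-TAM-labelled libraries, was at 20.6 and 20.3 CPM in the controls, 22.5 and 20.8 in HER2CA day 15, 13.9 and 12.7 in the 4OH-TAM-labelled libraries and 19.6 and 13.6 in the gliomaspheres. In the gliomaspheres, Ndufa1 had the largest complex I rise against controls, at 21.9 and 21.6 CPM in the controls, 20.4 and 20.3 in HER2CA day 15, 24.8 and 24.8 in the 4OH-TAM-labelled libraries and 33.7 and 27.3 in the gliomaspheres (log2 fold change 0.51, SE 0.10, edgeR adjusted p = 5.03e-04). Ndufa7 had the largest complex I fall against HER2CA day 15, at 46 and 58.5 CPM in the controls, 67.8 and 67.7 in HER2CA day 15, 43.2 and 43.8 in the 4OH-TAM-labelled libraries and 48.4 and 34.7 in the gliomaspheres (log2 fold change -0.67, SE 0.13, edgeR adjusted p = 2.02e-04). Some accessory subunits went the other way. Ndufb3, Ndufb8 and Ndufv3 fell in HER2CA day 15 (log2 fold changes -0.55, -0.49 and -0.31), and 11 complex I members, Ndufs7 and Ndufs8 among them, were not called in either direction.

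Ndufc2, an accessory subunit of the membrane arm (chromosome 7, 97400003 to 97407802, plus strand, GRCm38), was the complex I member furthest from the rest. It was at 74.7 and 73.9 CPM in the controls, 31.8 and 31.4 in HER2CA day 15, 77.4 and 74.7 in the 4OH-TAM-labelled libraries and 129 and 70.9 in the gliomaspheres. The HER2CA day 15 libraries were lower than every other one, and the 4OH-TAM-labelled libraries lay just above the controls. Ndufc2 fell in HER2CA day 15 (log2 fold change -1.23, SE 0.18, edgeR adjusted p = 1.18e-05) and was higher in the 4OH-TAM-labelled libraries than in HER2CA day 15 (log2 fold change 1.27, SE 0.17, edgeR adjusted p = 7.89e-06). The rise called in gliomaspheres against controls (log2 fold change 0.45) rested on gliomasphere A and was -0.07 without it.

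Complex II is the succinate dehydrogenase of the TCA cycle, with a catalytic pair (Sdha, Sdhb) on a membrane anchor (Sdhc, Sdhd). Its flavoprotein Sdha was at 495 and 525 CPM in the controls, 497 and 488 in HER2CA day 15, 491 and 499 in the 4OH-TAM-labelled libraries and 554 and 555 in the gliomaspheres, and was called in no comparison but gliomaspheres against HER2CA day 15 (log2 fold change 0.17). Sdhb, the iron-sulfur subunit, was at 133 and 143 CPM in the controls, 113 and 114 in HER2CA day 15, 97.5 and 95.9 in the 4OH-TAM-labelled libraries and 119.7 and 116 in the gliomaspheres, highest in the controls and lowest in the 4OH-TAM-labelled libraries (between them, log2 fold change -0.51). The anchors split. Sdhd was at 164 and 168 CPM in the controls, 129.9 and 125 in HER2CA day 15, 97.5 and 90.4 in the 4OH-TAM-labelled libraries and 125 and 116 in the gliomaspheres. It was highest in the controls and lowest in the 4OH-TAM-labelled libraries, with HER2CA day 15 and gliomaspheres between them. Sdhc, by contrast, was lowest in HER2CA day 15, at 139 and 143 CPM in the controls, 89.5 and 86.1 in HER2CA day 15, 122 and 114 in the 4OH-TAM-labelled libraries and 137 and 132 in the gliomaspheres. It fell from controls to HER2CA day 15 (log2 fold change -0.69, SE 0.07, edgeR adjusted p = 2.53e-07).

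In complex III the electron-carrying Rieske protein Uqcrfs1 (chromosome 13, 30540308 to 30545362, minus strand) was at 99.3 and 96.3 CPM in the controls, 60.8 and 53.9 in HER2CA day 15, 87 and 81.5 in the 4OH-TAM-labelled libraries and 139.7 and 123 in the gliomaspheres. HER2CA day 15 was lowest and the gliomaspheres highest, with no overlap (HER2CA day 15 against controls, log2 fold change -0.77, SE 0.08, edgeR adjusted p = 6.74e-07). Uqcr11, a small subunit bound near the Rieske protein, was at 44.8 and 53.3 CPM in the controls, 22.6 and 24.9 in HER2CA day 15, 42.1 and 46.9 in the 4OH-TAM-labelled libraries and 77.5 and 46.1 in the gliomaspheres. Its HER2CA day 15 libraries lay below all others, and the controls, 4OH-TAM libraries and gliomaspheres overlapped. Its fall in HER2CA day 15 (log2 fold change -1.04, SE 0.17, edgeR adjusted p = 4.57e-05) and its higher level in the 4OH-TAM-labelled libraries than in HER2CA day 15 (log2 fold change 0.90, SE 0.17, edgeR adjusted p = 1.64e-04) were both called. Uqcrh, the hinge protein next to cytochrome c1, was at 145 and 138 CPM in the controls, 78 and 77.8 in HER2CA day 15, 101 and 96.2 in the 4OH-TAM-labelled libraries and 142 and 90.3 in the gliomaspheres, lowest in HER2CA day 15 (against controls, log2 fold change -0.86). Uqcrq, an accessory subunit, went the other way, at 49.4 and 46.9 CPM in the controls, 79.6 and 83.2 in HER2CA day 15, 49.2 and 54.7 in the 4OH-TAM-labelled libraries and 86.9 and 35.8 in the gliomaspheres (HER2CA day 15 against controls, log2 fold change 0.76, lost with DESeq2 and without control B). The core proteins Uqcrc1 and Uqcrc2 were not called in HER2CA day 15 against controls (log2 fold changes 0.00 and 0.05). Uqcrc1 was at 162 and 177 CPM in the controls, 167 and 173 in HER2CA day 15, 168 and 171 in the 4OH-TAM-labelled libraries and 219.7 and 252 in the gliomaspheres, and it rose in the gliomaspheres against controls (log2 fold change 0.47). Uqcrc2 was at 237 and 236 CPM in the controls, 249 and 241 in HER2CA day 15, 213 and 199 in the 4OH-TAM-labelled libraries and 213 and 198 in the gliomaspheres, and it fell in the gliomaspheres against controls (log2 fold change -0.20).

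Complex IV carries the oxygen-reducing site on mitochondrially encoded subunits, and the nuclear subunits measured here surround them. Cox5b, the zinc-binding subunit (chromosome 1, 36691449 to 36693681, plus strand), was at 36.7 and 36.3 CPM in the controls, 78.9 and 69.6 in HER2CA day 15, 60.1 and 65.2 in the 4OH-TAM-labelled libraries and 145 and 93.3 in the gliomaspheres. The controls lay below every other library and the gliomaspheres above (HER2CA day 15 against controls, log2 fold change 1.02, SE 0.14, edgeR adjusted p = 1.16e-05; gliomaspheres against controls, log2 fold change 1.73, SE 0.15, edgeR adjusted p = 8.19e-08). Cox5a, its neighbour in the complex, rose in HER2CA day 15 against controls as well (89.2 and 84 to 113 and 104 CPM, log2 fold change 0.32). It fell in the 4OH-TAM-labelled libraries against HER2CA day 15 (64.3 and 61.6 against 113 and 104 CPM, log2 fold change -0.78, SE 0.09, edgeR adjusted p = 1.97e-06), where Cox5b was not called (log2 fold change -0.24, SE 0.14, edgeR adjusted p = 0.121). The ratio of Cox5b to Cox5a per kilobase of transcript was 0.31 and 0.32 in the controls, 0.52 and 0.50 in HER2CA day 15, 0.70 and 0.79 in the 4OH-TAM-labelled libraries, and 0.98 and 0.80 in the gliomaspheres. Cox4i1, the large regulatory subunit, was at 155 and 171 CPM in the controls, 214 and 202 in HER2CA day 15, 154 and 162 in the 4OH-TAM-labelled libraries and 209 and 186 in the gliomaspheres. It rose against controls in HER2CA day 15 and in the gliomaspheres (log2 fold changes 0.35 and 0.28).

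Cox6a1, Cox7a2 and Cox8a are the widely expressed forms of subunits that also have muscle forms. Cox6a1 was at 191 and 192 CPM in the controls, 179 and 181 in HER2CA day 15, 138 and 138 in the 4OH-TAM-labelled libraries and 229.6 and 197 in the gliomaspheres. Cox7a2 was at 61.1 and 62.1 CPM in the controls, 49 and 46.6 in HER2CA day 15, 40.8 and 43.3 in the 4OH-TAM-labelled libraries and 55.2 and 40.5 in the gliomaspheres. Cox8a was at 188 and 185 CPM in the controls, 169 and 161 in HER2CA day 15, 143 and 137 in the 4OH-TAM-labelled libraries and 242 and 171 in the gliomaspheres. All 3 of these fell against controls in the 4OH-TAM-labelled libraries (log2 fold changes -0.48, -0.55 and -0.41). Cox7a2l, the supercomplex factor, was at 93.4 and 101 CPM in the controls, 80.7 and 81.6 in HER2CA day 15, 96.6 and 95.8 in the 4OH-TAM-labelled libraries and 103 and 94.4 in the gliomaspheres, and was called higher in the 4OH-TAM-labelled libraries than in HER2CA day 15 (log2 fold change 0.25).

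In HER2CA day 15 against controls, the members with the largest changes were tissue-restricted isoforms of complex IV. Cox6b2, known as the testis form of subunit 6B (chromosome 7, 4751792 to 4753094, minus strand), was at 40.8 and 49.7 CPM in the controls, 1.47 and 3.07 in HER2CA day 15, 36.5 and 32.2 in the 4OH-TAM-labelled libraries and 13.8 and 12 in the gliomaspheres. It fell in HER2CA day 15 (log2 fold change -4.26, SE 0.19, edgeR adjusted p = 4.44e-11) and was lower than in controls in the gliomaspheres as well (log2 fold change -1.78, SE 0.16, edgeR adjusted p = 1.68e-07). The 4OH-TAM-labelled libraries lay far above HER2CA day 15 and below the controls. This last difference (log2 fold change -0.40) kept its call in 13 of 17 alternatives. The call was lost with DESeq2, with no scaling factors, without 4OH-TAM B and without control B. The common form Cox6b1 was at 163 and 173 CPM in the controls, 152 and 149 in HER2CA day 15, 128 and 126 in the 4OH-TAM-labelled libraries and 155 and 151 in the gliomaspheres. Per kilobase, Cox6b2 was 33.4% and 38.2% of Cox6b1 in the controls, 1.28% and 2.74% in HER2CA day 15, 37.8% and 34.1% in the 4OH-TAM-labelled libraries, and 11.9% and 10.6% in the gliomaspheres. Cox7a1, the heart and skeletal muscle form of subunit 7A, was also lowest in HER2CA day 15, at 1.8 and 2.6 CPM in the controls, 0.321 and 0.69 in HER2CA day 15, 2.3 and 2.49 in the 4OH-TAM-labelled libraries and 1.05 and 0.911 in the gliomaspheres. The muscle form of subunit 6A, Cox6a2, went the opposite way. It had 0 counts in both controls, 147 counts over the 2 HER2CA day 15 libraries, 66 over the 2 labelled 4OH-TAM and 2 over the gliomaspheres. Against a floor of 3 counts over the control group, it was at least 48.5-fold higher in HER2CA day 15 and at least 21.2-fold higher in the 4OH-TAM-labelled libraries. Every gene in the count table reached 1 CPM in at least 2 libraries. Cox6a2 did so only through these 2 groups, so its excess over the controls and gliomaspheres is conditional on how it entered the table. Between HER2CA day 15 and gliomaspheres the ratio was 48.8 (95% interval 13.3 to 407, counting error only). Per kilobase it stayed at or under 1.46% of Cox6a1 in each library. The myoglobin gene Mb, the only 1 of 6 striated muscle markers measured, was at 0.0458 and 0 CPM in HER2CA day 15, the group with the highest Cox6a2.

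Complex V consists of the F1 head, where alpha and beta chains make ATP, and the membrane ring of c subunits that the protons turn. The alpha chain Atp5a1 (chromosome 18, 77773729 to 77782869, plus strand) was at 888 and 942 CPM in the controls, 386 and 384 in HER2CA day 15, 728 and 688 in the 4OH-TAM-labelled libraries and 1141 and 1210 in the gliomaspheres. HER2CA day 15 lay far below the rest, the gliomaspheres above, and replicates stayed close together. Atp5a1 fell in HER2CA day 15 (log2 fold change -1.25, SE 0.08, edgeR adjusted p = 8.97e-10) and was higher in the 4OH-TAM-labelled libraries (log2 fold change 0.88, SE 0.07, edgeR adjusted p = 3.72e-08) and in the gliomaspheres (log2 fold change 1.61, SE 0.08, edgeR adjusted p = 3.40e-11) than in HER2CA day 15. The beta chain Atp5b, which pairs with it in equal number in the enzyme, was at 1265 and 1327 CPM in the controls, 1362 and 1320 in HER2CA day 15, 1038 and 998 in the 4OH-TAM-labelled libraries and 1628 and 1581 in the gliomaspheres. Beta was not called in HER2CA day 15 against controls (log2 fold change 0.05, SE 0.08, edgeR adjusted p = 0.562). The ratio of alpha to beta per kilobase was 0.22 and 0.23 in HER2CA day 15, against 0.54 and 0.55 in the controls, 0.54 and 0.53 in the 4OH-TAM-labelled libraries and 0.54 and 0.59 in the gliomaspheres. Atp5a1 exons overlap those of Haus1 on the opposite strand, and no label states whether the counting used strand.

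The c subunit of the ring is made from 3 genes, Atp5g1, Atp5g2 and Atp5g3, whose mature proteins are the same. Atp5g1 (chromosome 11, 96068852 to 96075670, minus strand) was at 59 and 66.7 CPM in the controls, 117 and 118 in HER2CA day 15, 46 and 48.4 in the 4OH-TAM-labelled libraries and 58.9 and 70.4 in the gliomaspheres. HER2CA day 15 stood above every other library and the 4OH-TAM-labelled libraries below (HER2CA day 15 against controls, log2 fold change 0.90, SE 0.09, edgeR adjusted p = 1.92e-07, and 4OH-TAM against HER2CA day 15, log2 fold change -1.32, SE 0.09, edgeR adjusted p = 2.96e-09). Per kilobase, Atp5g1 made up 25.2% and 27.1% of the 3 genes in the controls, 38.9% and 37.1% in HER2CA day 15, 23.5% and 24.1% in the 4OH-TAM-labelled libraries, and 18.8% and 22.6% in the gliomaspheres. Atp5g3 was instead highest in the gliomaspheres, at 112 and 103 CPM in the controls, 98.6 and 102 in HER2CA day 15, 88.5 and 86.9 in the 4OH-TAM-labelled libraries and 173 and 141 in the gliomaspheres (gliomaspheres against controls, log2 fold change 0.55). Atp5g2 was at 60.6 and 69.8 CPM in the controls, 75.3 and 84.5 in HER2CA day 15, 55.8 and 58.9 in the 4OH-TAM-labelled libraries and 81 and 91.5 in the gliomaspheres. It rose both in HER2CA day 15 (log2 fold change 0.30) and in the gliomaspheres (0.40).

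The OSCP stalk subunit Atp5o was at 150.2 and 169 CPM in the controls, 191 and 189 in HER2CA day 15, 132 and 130.2 in the 4OH-TAM-labelled libraries and 190.2 and 200.1 in the gliomaspheres, lowest in the 4OH-TAM-labelled libraries (against HER2CA day 15, log2 fold change -0.53). The central stalk subunits Atp5d and Atp5e were lower there than in controls (log2 fold changes -0.45 and -0.57). Both calls were lost with no scaling factors. The Atp5d call was kept in 16 of 17 alternatives and the Atp5e call in 11. Atp5e also lost its call with DESeq2 and without any 1 library of either group. The gamma subunit Atp5c1 was highest in the gliomaspheres (308 and 263 CPM against 246 and 256 in controls), but this difference from controls was not called. The assembly factor Atp5sl was at 36.8 and 36.7 CPM in the controls, 16.7 and 15.7 in HER2CA day 15, 21.8 and 17.6 in the 4OH-TAM-labelled libraries and 18.6 and 19.8 in the gliomaspheres. Every other group lay below the controls for this gene (HER2CA day 15 against controls, log2 fold change -1.18, SE 0.11, edgeR adjusted p = 7.37e-08).

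**Figure D4:**
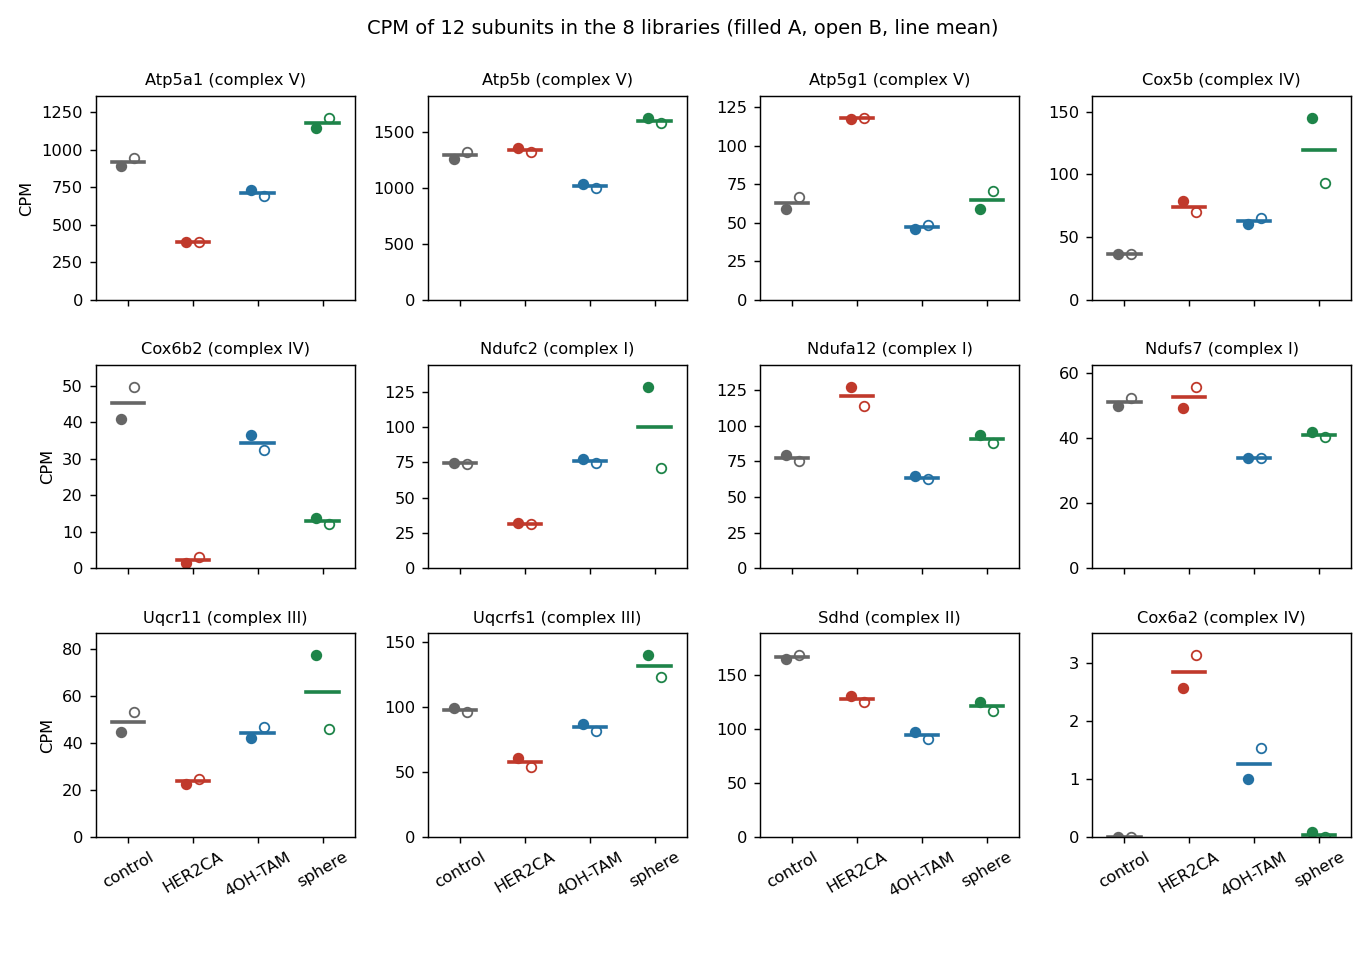
Points are CPM in each library (filled for A, open for B) and lines are means of the 2 libraries, on axes that start at 0, for 12 genes in the 4 groups. Atp5a1, Ndufc2, Uqcr11, Uqcrfs1 and Cox6b2 are lowest in HER2CA day 15, Atp5g1, Ndufa12 and Cox6a2 are highest there, and Ndufs7 and Sdhd are lowest in the 4OH-TAM libraries.

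Genes that build and feed these complexes were counted by list. In HER2CA day 15 against controls, 37.3% of all genes were called higher and 38.4% lower, and in the 4OH-TAM-labelled libraries against HER2CA day 15, 40.8% and 39.7%. Of 14 complex I assembly factors, 9 rose and 1 fell in HER2CA day 15 against controls (median log2 fold change 0.31), and 0 rose and 11 fell in the 4OH-TAM-labelled libraries against HER2CA day 15 (-0.49). Timmdc1, which builds the membrane arm, was at 24.7 and 24.6 CPM in the controls, 47.9 and 47.2 in HER2CA day 15, 24.7 and 23.1 in the 4OH-TAM-labelled libraries and 23.9 and 25 in the gliomaspheres. Acad9, another assembly factor, rose from 64.3 and 66.8 to 98.8 and 98.3 CPM in HER2CA day 15. Of 32 assembly factors of complexes II to V, 15 rose and 9 fell in HER2CA day 15, and 5 rose and 18 fell in the 4OH-TAM-labelled libraries against HER2CA day 15. Lrpprc, which stabilises mitochondrial mRNAs, rose in HER2CA day 15 (55 and 50.7 to 157 and 151 CPM), and Sdhaf1, needed to load iron-sulfur clusters into Sdhb, fell (20.9 and 17.5 to 6.97 and 6.9 CPM). Of the 7 measured subunits and carriers outside the naming rule, 2 rose and 2 fell in HER2CA day 15. Cycs, the soluble electron carrier cytochrome c, rose (88.3 and 103 to 168 and 176 CPM, log2 fold change 0.85, SE 0.14, edgeR adjusted p = 6.51e-05), and the Ndufa4 relative Ndufa4l2 fell at a low level (1.92 and 3.05 to 0.321 and 0.241 CPM).

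Other mitochondrial lists were counted beside the same backgrounds (37.3% of all genes higher and 38.4% lower in HER2CA day 15 against controls, 40.8% and 39.7% in 4OH-TAM against HER2CA day 15). All but 1 of 14 mitochondrial chaperones and proteases rose in HER2CA day 15 (median log2 fold change 0.66), and 12 of 14 fell in the 4OH-TAM-labelled libraries against HER2CA day 15 (-0.87). The matrix protease Lonp1 was at 126 and 126 CPM in the controls, 761 and 768 in HER2CA day 15, 167 and 196 in the 4OH-TAM-labelled libraries and 133 and 138 in the gliomaspheres. The matrix Hsp70 Hspa9 was at 758 and 730.1 CPM in controls and 2944 and 3075 in HER2CA day 15. Of 19 regulators of mitochondrial biogenesis, 14 rose and 4 fell in HER2CA day 15. The coactivator Ppargc1a (PGC-1alpha) was among those that fell, at 87.4 and 81.6 CPM in the controls, 13.7 and 14.9 in HER2CA day 15, 80 and 83.9 in the 4OH-TAM-labelled libraries and 91 and 99.8 in the gliomaspheres (log2 fold change -2.56, SE 0.09, edgeR adjusted p = 2.82e-12). Of 17 TCA cycle genes, 4 rose and 6 fell in HER2CA day 15, and 10 rose and 1 fell in gliomaspheres against controls (32.5% and 32% of all genes). That exception was Idh2, the mitochondrial NADP isocitrate dehydrogenase (328 and 351 CPM in controls, 619.7 and 657 in HER2CA day 15, 121 and 120.2 in gliomaspheres). Of 16 carriers and pores, 7 rose and 4 fell in HER2CA day 15. The phosphate carrier Slc25a3, which supplies complex V, was at 84.7 and 80 CPM in the controls, 145 and 134 in HER2CA day 15, 150.01 and 146 in the 4OH-TAM-labelled libraries and 294 and 289.6 in the gliomaspheres. The ADP/ATP carrier Slc25a5 was highest in the gliomaspheres as well (555 and 543 CPM against 174 and 184 in controls).

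Of 23 measured genes of glycolysis and pyruvate control, 1 rose and 19 fell in HER2CA day 15 against controls (median log2 fold change -1.25, beside 37.3% of all genes higher and 38.4% lower), and 16 rose and 4 fell in the 4OH-TAM-labelled libraries against HER2CA day 15 (0.62, beside 40.8% and 39.7%). Their summed level was 13908 to 15694 CPM in the controls, 5179 to 5258 in HER2CA day 15, 7880 to 8382 in the 4OH-TAM-labelled libraries and 11640 to 12342 in the gliomaspheres. The single gene that rose in HER2CA day 15 was Pdk4, the kinase that holds pyruvate dehydrogenase off (30 and 26.7 to 72.3 and 107 CPM). The glucose transporter Slc2a1 fell from 281 and 289 to 29.7 and 35.1 CPM. In the 4OH-TAM-labelled libraries against controls, 3 of the 23 rose and 17 fell, beside 31% and 28.2% of all genes. The astrocyte marker sum given above was also lowest in HER2CA day 15.

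Read assignment limits some of these values. In GENCODE M21 annotation, 27 of the 78 members share a stretch of at least 150 bases at 95% identity or more with another annotated gene, so counts may be split or merged. Among the members described above these are Cox5b, Atp5g1, Atp5g2, Uqcr11, Atp5o, Atp5l, and Ndufa12, and no such copy was found for Atp5a1, Atp5b, Ndufc2, Uqcrfs1, Cox6b2 or Cox6a2. Exons of 5 members overlap another gene on the same strand (Ndufb2, Ndufb8, Ndufb9, Atp5g2 and Atp5o), and those of 25 overlap a gene on the opposite strand. Among these 25 are Atp5a1 (with Haus1) and the low-count Cox6a2 (with Itgad). Whether the counting used strand is not stated.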

How the data were processed

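RNA was sequenced from polyA-selected, strand-specific mRNA libraries of 8 samples, per the labels' protocols. Deposited values are raw read counts per gene symbol, unnormalised by the authors as the values show (whole numbers with unequal totals). The submitters' processing notes list the builds GRCm38 and mm10 and the tools featureCounts, FastQC and STAR 2.5.3a, with no role. Which annotation and strand setting were used is not given in the sources. Each of the 13607 genes reached 1 CPM in at least 2 libraries, so low genes were not analysed here.

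Count columns were matched to samples by title. In R 4.3.3, edgeR 4.0.16 was run with TMM factors, filterByExpr (all 13607 genes kept) and a quasi-likelihood fit with 1 mean per group over 8 libraries (4 residual degrees of freedom), and p-values were adjusted by Benjamini-Hochberg over the whole table, with calls at 0.05. Standard errors were taken from the F statistic (absolute log2 fold change over root F). The alternatives were 4 scalings, 2 filters, DESeq2 1.42.0, a fit to the 2 compared groups alone, a block for the replicate letter, and each library left out. Replicate pairs differed by more than counting noise (chi-square per degree of freedom 4.05 to 733), so each library counts once.

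Transcript lengths, overlaps and near-identical copies (blastn 2.17.0) were taken from GENCODE M21 (GRCm38), where 77 members were found by symbol and 1 by a RefSeq synonym. Given library by library are the catalytic subunits, the alternative isoforms, and the members with the largest called rise or fall in a complex. Of the 78 members, 1 is neither named nor drawn in the heat map, but it stays in every count. Other members named with values were chosen after their values were seen. The members and lists were chosen with earlier results of these data known. Examples from a list were among those with the lowest p in each direction of a comparison.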

Additional observations from a re-analysis of the deposited data

How the results depend on the processing

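Over 78 members, 5 comparisons and 17 alternatives there were 6619 log2 fold changes. Without a change of sign, 492 lost a call and 194 gained one. In all, 265 changed sign, of which 32 were called in the reported fit or in the alternative and 233 in neither. With upper-quartile factors, which moved the median of all genes to -0.17 (HER2CA day 15 against control) and 0.22 (4OH-TAM against HER2CA day 15), 12 members were higher in HER2CA day 15 than in controls, 19 were higher and 23 lower in 4OH-TAM than in HER2CA day 15, 4 were higher in 4OH-TAM than in controls, and 11 were lower in gliomaspheres than in HER2CA day 15. With no scaling factors, in which Rn45s counts stay in the scale of gliomasphere B, the higher and lower counts were 4 and 9 (HER2CA day 15 against control), 6 and 6 (4OH-TAM against HER2CA day 15), 2 and 2 (4OH-TAM against control), 1 and 6 (gliomaspheres against control) and 5 and 9 (gliomaspheres against HER2CA day 15), and the median of all genes was 0.13 in the second, -0.33 in the fourth and -0.30 in the fifth. The share of all called genes that were higher was 61.5% with upper-quartile factors in 4OH-TAM against HER2CA day 15 (50.7% as reported), and with no scaling factors 39.1%, 68.0%, 79.7% and 29.8% in the first 4 of these comparisons (49.3%, 50.7%, 52.4% and 50.4% as reported). Fitting only the 2 groups compared gave 4 members higher in 4OH-TAM than in controls. Leaving out 1 library at a time gave 15 to 26 higher and 16 to 29 lower for HER2CA day 15 against control, 8 to 16 and 34 to 48 for 4OH-TAM against HER2CA day 15, 2 to 5 and 22 to 50 for 4OH-TAM against control, 15 to 39 and 5 to 30 for gliomaspheres against control, and 22 to 40 and 10 to 33 for gliomaspheres against HER2CA day 15. Members higher in 4OH-TAM than in controls were 4 without gliomasphere A and 5 without gliomasphere B. The cause of these shifts was not tested.

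The 32 changes of sign that involved a call were as follows. With upper-quartile factors in 4OH-TAM against HER2CA day 15 the log2 fold changes were Ndufv3 0.18, Uqcrb 0.030 and Uqcrc1 0.20. With no scaling factors they were Ndufa12 -0.088, Ndufb5 -0.028, Ndufv2 -0.0045, Cox4i1 -0.030, Atp5b -0.015, Atp5h -0.076 and Atp5o -0.050 in gliomaspheres against control, and Ndufs1 -0.088, Sdha -0.11, Cox6a1 -0.0038, Atp5b -0.013, Atp5d -0.019 and Atp5h -0.015 in gliomaspheres against HER2CA day 15. Leaving out a sphere library changed 8 such values against control, which were, without A and without B, -0.39 and 0.24 for Ndufa11, -0.099 and 0.73 for Ndufa4, -0.068 and 0.79 for Ndufc2, -0.43 and 0.85 for Uqcrq, -0.32 and 0.56 for Cox6c, -0.59 and 0.51 for Cox7b, -0.70 and 0.40 for Atp5l, and -0.53 and 0.29 for Uqcr10. Against HER2CA day 15 the 8 such values were -0.078 and 0.79 for Ndufa4, -0.28 and 0.58 for Ndufa6, -0.49 and 0.37 for Uqcr10, -0.24 and 0.25 for Cox7a2, -0.32 and 0.83 for Cox7b, -0.32 and 0.82 for Atp5l, -0.38 and 0.22 for Atp5j, and -0.41 and 0.21 for Atp5j2.

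No pairing of libraries by the letters A and B was seen: correlations of their deviations across groups were -0.03 to 0.07. This does not show that the libraries were unpaired. With the letter as a replicate block, 1 of the 225 calls was lost (Ndufa11 in 4OH-TAM against control). Depth is thinnest for Cox6a2 and Cox7a1, which stayed under 4 CPM in every library.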
